A study of Mus musculus with 6 samples.

Results

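The 9 genes described here encode proteins that cells secrete to block Wnt signalling: the Frizzled-related proteins Frzb, Sfrp1, Sfrp2, Sfrp4 and Sfrp5, the Wnt inhibitory factor Wif1, and the Dickkopf family members Dkk1, Dkk2 and Dkk3. They were found by symbol in the table of 24973 array probe sets, where each of the 9 had 1 probe set. Expression was measured in ventral aortic tissue, which lies underneath the dorsal aorta, on 3 arrays, and in dorsal aortic tissue, which lies above the vessel, next to the notochord, on 3 arrays. All 6 samples came from C57Bl/6 embryos at embryonic day 11.5 with no genetic change or treatment, were cut by laser microdissection from sections of unfixed, frozen embryos, and are numbered as biological replicates 1 to 3 in each tissue. The 2 tissues were isolated from the same embryos, and the labels do not say whether a replicate is 1 embryo or a pool. The question was which genes differ between the 2 sides of the aorta, the ventral side being studied as a niche of hematopoietic stem cells.

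Wnt ligands bind Frizzled receptors together with an LRP co-receptor and so stabilise beta-catenin, which acts with TCF and LEF factors in the nucleus. Frizzled-related proteins and Wif1 bind the ligands outside the cell, whereas Dkk1 and Dkk2 bind the LRP co-receptor, and Dkk3 is a divergent relative whose place in Wnt signalling is less settled. In the embryo these proteins shape where Wnt signals reach, in cartilage precursors, limb and gut mesenchyme and somites among other tissues.

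Levels are the deposited log2 values, differences are ventral minus dorsal on the log2 scale, and how precise they are is limited by there being 3 arrays a tissue. A gene was tested when its mean over the 6 arrays reached 4.52, the median level on the arrays, which left 12028 named genes. The test was limma with the replicate number as a block, although the labels do not tie a number to an embryo and same-numbered arrays deviated together only weakly, and a gene was called at an adjusted p below 0.05 over all 12028. Of these, 62 (0.515%) were called, 37 (0.308%) of them higher and 25 (0.208%) lower in ventral tissue. The arrays of the 2 tissues did not overlap for 15.4% of genes tested, with ventral above dorsal for 7.5% and below it for 7.88%. Marker lists of neighbouring cell types stood at different levels in the 2 tissues. The mean level of 7 sclerotome and early cartilage genes was 5.24 to 5.49 on ventral and 6.38 to 7.22 on dorsal arrays, and of the 6 tested 2 were called, both lower in ventral tissue. That of 7 coelomic epithelium and gonadal ridge genes was 5.54 to 6.12 on ventral and 4.50 to 4.93 on dorsal arrays, and of the 5 tested 1 was called, higher. That of 6 smooth muscle and pericyte genes, all tested and 1 called higher, was 6.57 to 8.42 on ventral and 5.56 to 6.42 on dorsal arrays. The 3 notochord genes named in the table averaged 3.92 to 4.30 on ventral and 4.05 to 4.30 on dorsal arrays, with Noto and Foxa2 below the filter level. Further lists also stood apart on every array. Splanchnic and gut mesenchyme was at 5.71 to 6.72 on ventral and 5.17 to 5.68 on dorsal arrays, with 2 of 5 tested genes called higher. Macrophages were at 5.85 to 5.94 on ventral and 5.28 to 5.66 on dorsal arrays. Neurons were at 5.66 to 6.44 on ventral and 6.54 to 7.29 on dorsal arrays. Erythroid cells were at 8.48 to 8.85 on ventral and 9.03 to 9.31 on dorsal arrays. None of the last 3 lists had a called gene. Not every gene of a list went with its mean. Of the 6 sclerotome genes tested, 1 had a positive log2 difference (0.22). Of the 5 splanchnic genes tested, 1 had a negative one (−1.71).

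Among the secreted antagonists, Frzb was the 1 member called, with a 3.72-fold higher value in ventral tissue. That call came with a dorsal mean below the filter level, and it was lost when dim genes were tested as well (adjusted p = 0.0647). Sfrp1 had a higher mean in ventral tissue as well (1.81-fold) and Dkk2 in dorsal tissue (2.13-fold), neither passing the test over all genes. Both were without overlap between the tissues, as were 15.4% of all genes tested. Sfrp2, Wif1, Dkk1 and Dkk3 overlapped between the tissues. Sfrp4 and Sfrp5 lay below the filter level and were not tested, so that 7 of the 9 members entered the test.

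Frzb, also known as the third secreted Frizzled-related protein, binds Wnt ligands through a cysteine-rich domain like that of the receptors and is best known from cartilage precursors. Its level was 5.83, 5.60 and 5.83 on ventral arrays 1, 2 and 3, against 4.21, 3.51 and 3.87 on dorsal arrays 1, 2 and 3. The lowest ventral array was well above the highest dorsal array, and the ventral arrays lay closer together than the dorsal ones. Frzb averaged 5.75 ± 0.13 in ventral and 3.86 ± 0.35 in dorsal tissue (SD, n = 3 each). The log2 difference was 1.89 ± 0.18 (SE; limma, adjusted p = 0.0208), with a 95% interval of 1.45 to 2.34. Ventral tissue was higher in 3 of 3 pairs, which follows from the absence of overlap. By size of difference, Frzb stood at place 66 of the 12028 genes. Its dorsal mean lies below the filter level, as did that of 12 of the 62 called genes, so its ventral arrays carried it past the filter and the fold is one of deposited values rather than an exact ratio of transcript. The call held without the replicate block (adjusted p = 0.0139) and was lost without replicate 3 (0.0507) and, in fits without the block, without ventral array 2 (0.0749) or 3 (0.0670), while the difference was 1.72 to 2.07 when any pair or any array was left out. In such tissue pieces, fewer cells of a type and less RNA per cell cannot be told apart. The 7 marker lists given above whose array means did not overlap also stood apart between the tissues, and their part in the Frzb difference was not tested.

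**Figure D1:**
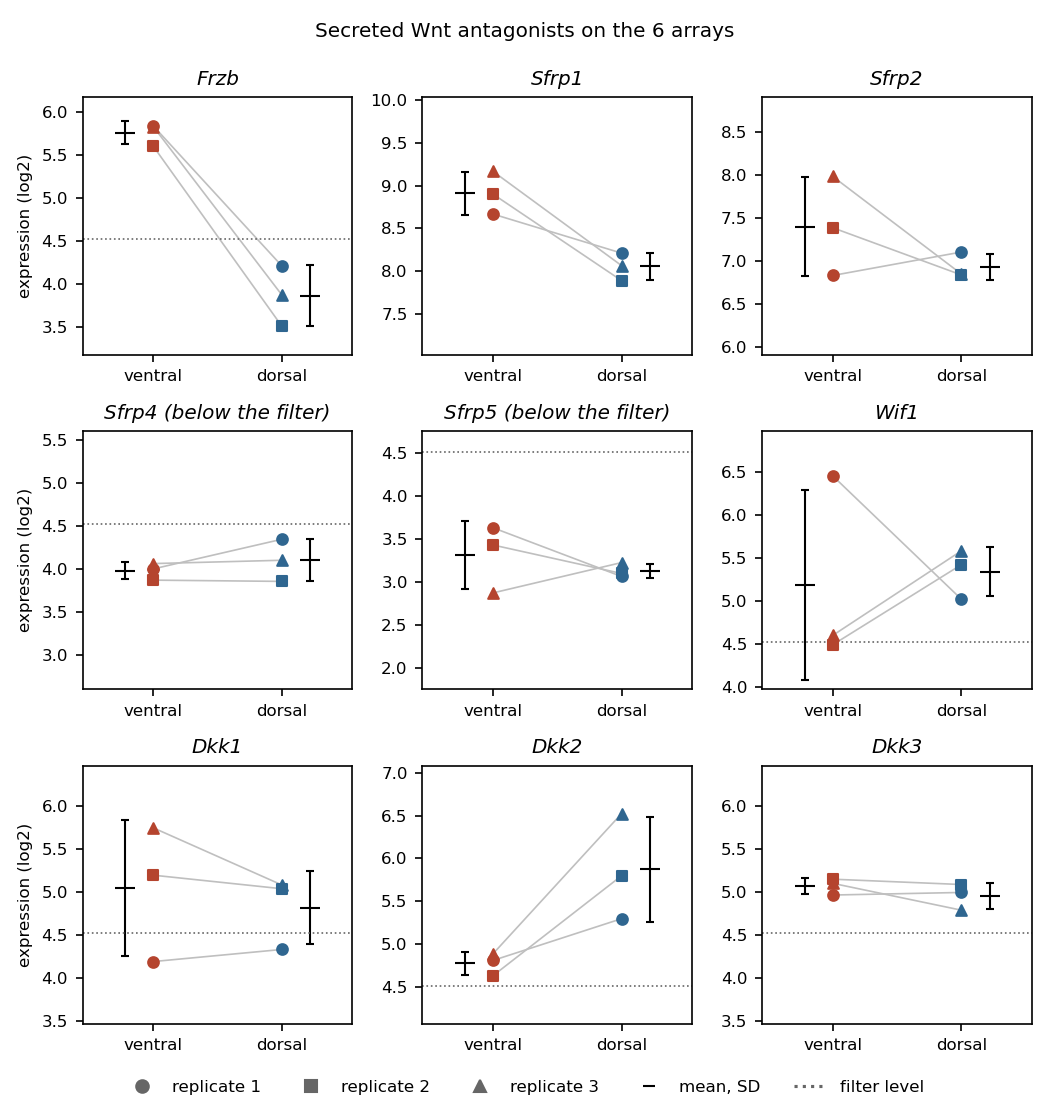
Log2 expression of the 9 secreted Wnt antagonists, a panel per gene with the same height of 3 log2 units, on ventral (left) and dorsal (right) arrays. Symbols mark replicate numbers, grey lines join same-numbered arrays, black bars give the mean and SD over 3 arrays, and the dotted line is the filter level of 4.52. Frzb and Sfrp1 are higher on every ventral array, Dkk2 is lower on every ventral array, and Wif1 on ventral array 1 (6.46) stands apart from ventral arrays 2 and 3.

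Promoter windows, from 250 bases before to 50 after the gene start, were taken from RefSeq (GRCm38.p6) for 6 of the 9 members, namely Frzb, Sfrp2, Sfrp5, Wif1, Dkk1 and Dkk2. Those of Frzb and Dkk2 are shown because these genes had the greatest differences in either direction, and that of Dkk1 because it held the TCF/LEF matches. They run 5′ to 3′ on the gene's strand, and capitals mark the motifs searched on both strands: for TCF/LEF the letters CTTTGAA or CTTTGAT and also CTTTGTA or CTTTGTT, for GATA the letters AGATAA or AGATAG and also TGATAA or TGATAG, and for TATA the letters TATAAA. The windows are chr2:80447347-80447646 on the minus strand for Frzb, chr3:132085042-132085341 on the plus strand for Dkk2 and chr19:30549447-30549746 on the minus strand for Dkk1.
Frzb: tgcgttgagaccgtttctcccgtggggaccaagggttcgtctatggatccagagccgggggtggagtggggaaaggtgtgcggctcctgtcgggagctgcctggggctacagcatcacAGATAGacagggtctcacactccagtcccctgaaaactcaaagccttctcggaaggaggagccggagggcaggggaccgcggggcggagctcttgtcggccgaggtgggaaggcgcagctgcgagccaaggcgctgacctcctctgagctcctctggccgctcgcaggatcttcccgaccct
Dkk2: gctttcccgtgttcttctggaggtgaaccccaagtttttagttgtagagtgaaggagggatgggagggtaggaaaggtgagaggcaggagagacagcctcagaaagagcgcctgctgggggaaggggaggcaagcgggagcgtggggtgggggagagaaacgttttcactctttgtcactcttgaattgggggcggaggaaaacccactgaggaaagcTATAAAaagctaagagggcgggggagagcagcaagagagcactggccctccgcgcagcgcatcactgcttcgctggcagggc
Dkk1: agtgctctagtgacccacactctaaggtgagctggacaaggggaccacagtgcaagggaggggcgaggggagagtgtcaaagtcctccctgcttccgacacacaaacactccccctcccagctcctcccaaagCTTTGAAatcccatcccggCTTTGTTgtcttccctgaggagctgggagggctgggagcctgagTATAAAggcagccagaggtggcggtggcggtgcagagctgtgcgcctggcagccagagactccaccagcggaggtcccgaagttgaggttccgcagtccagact
The Frzb window held a GATA match (AGATAG) at positions 119 to 124, counted from 1 at its 5′ end, and none of the other motifs. Of the 6 member windows, 2 held a GATA match, that of Frzb and that of Sfrp5, and 29.8% of all 32851 promoter windows held one. The Dkk2 window held TATAAA at positions 219 to 224. The Dkk1 window held TATAAA at positions 197 to 202 and a pair of TCF/LEF matches, CTTTGAA at 134 to 140 and CTTTGTT at 153 to 159. It was the 1 member window of 6 with a TCF/LEF match, and 16.9% of all windows held one. TATAAA was in 3 member windows (Dkk1, Dkk2 and, on the minus strand, Wif1) and in 13.6% of all windows. These are matches of letters in short windows, given as a description.

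Sfrp1, another Frizzled-related protein, had levels of 8.67, 8.90 and 9.16 on ventral arrays 1, 2 and 3, against 8.21, 7.89 and 8.07 on dorsal arrays 1, 2 and 3. Every ventral array was above every dorsal array, by a smaller margin than for Frzb. Sfrp1 averaged 8.91 ± 0.25 in ventral and 8.06 ± 0.16 in dorsal tissue (SD, n = 3 each). The log2 difference was 0.85 ± 0.20 (SE; limma, adjusted p = 0.189), with a 95% interval of 0.37 to 1.34 before any adjustment for the number of genes. It was 0.45, 1.01 and 1.10 for replicates 1, 2 and 3, and 3 of 3 positive pairs follow from the absence of overlap. A difference at least as large in size was seen for 3.90% of the genes tested. Sfrp1 was not called, and its adjusted p ran from 0.0986 to 0.433 over the alternatives tried.

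Sfrp2, which is close to Sfrp1 in sequence and is widely used by embryonic mesenchyme, was uneven within ventral tissue. Its level was 6.83, 7.39 and 7.99 on ventral arrays 1, 2 and 3, against 7.11, 6.84 and 6.85 on dorsal arrays 1, 2 and 3. Ventral array 1 lay with the dorsal arrays, and the other 2 ventral arrays were above them. The ventral arrays spanned 1.15, with an SD of 0.58, against an SD of 0.15 over dorsal arrays. The log2 difference was 0.47 ± 0.28 (SE; limma, adjusted p = 0.640). It was 0.84 without replicate 1 and 0.14 without replicate 3, not called in either case (adjusted p = 0.310 and 0.946).

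The remaining Frizzled-related members were dim. Sfrp4 had levels of 4.004, 3.87 and 4.07 on ventral arrays 1, 2 and 3, against 4.35, 3.86 and 4.11 on dorsal arrays 1, 2 and 3. Sfrp5, known from foregut and cardiac progenitors, had levels of 3.63, 3.43 and 2.88 on ventral arrays 1, 2 and 3, against 3.07, 3.10 and 3.23 on dorsal arrays 1, 2 and 3. Both overlapped between the tissues and stayed below 4.52 on all 6 arrays. Fitted without the filter, their log2 differences were −0.12 ± 0.15 for Sfrp4 and 0.18 ± 0.21 for Sfrp5 (SE; limma, adjusted p = 0.902 for both). At levels this near the dim end of the arrays a difference could be missed.

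Wif1, which binds Wnt ligands through its WIF domain, depended on 1 array. Its level was 6.46, 4.50 and 4.60 on ventral arrays 1, 2 and 3, against 5.03, 5.43 and 5.59 on dorsal arrays 1, 2 and 3. Ventral array 1 was the highest of all 6 arrays, 0.87 above the next, while ventral arrays 2 and 3 were the lowest. The log2 difference was −0.16 ± 0.48 (SE; limma, adjusted p = 0.949), the widest error among the members tested. Within pairs it was 1.43 for replicate 1, −0.93 for replicate 2 and −0.98 for replicate 3. Without replicate 1 the difference was −0.96 ± 0.23 (adjusted p = 0.186), without replicate 2 it was 0.23 and without replicate 3 it was 0.25, so no direction can be given for the 2 tissues. As far above all other arrays on ventral array 1 as Wif1, or farther, were 59 of the 12028 genes, Wif1 included. On that array the smooth muscle and pericyte list had a mean level of 8.42, against 7.33 and 6.57 on ventral arrays 2 and 3. The splanchnic and gut mesenchyme list had one of 5.71, against 6.72 and 6.28. Other lists differed there too. Lower on ventral array 1 were the sympathoadrenal (5.06, against 6.39 and 6.72), neuron (5.66, against 6.25 and 6.44) and endothelium lists (6.07, against 6.45 and 6.51). So was the coelomic epithelium and gonadal ridge list (5.54, against 6.12 and 5.81). The mesonephros and erythroid lists were also lowest there, by a small margin. Higher on ventral array 1 was the skeletal muscle and dermomyotome list (5.04, against 4.85 and 4.52). The sclerotome (5.49, against 5.24 and 5.32) and notochord lists (4.30, against 3.92 and 4.03) were higher there too. Whether the tissue cut for that array had a part in the Wif1 level was not tested.

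**Figure D2:**
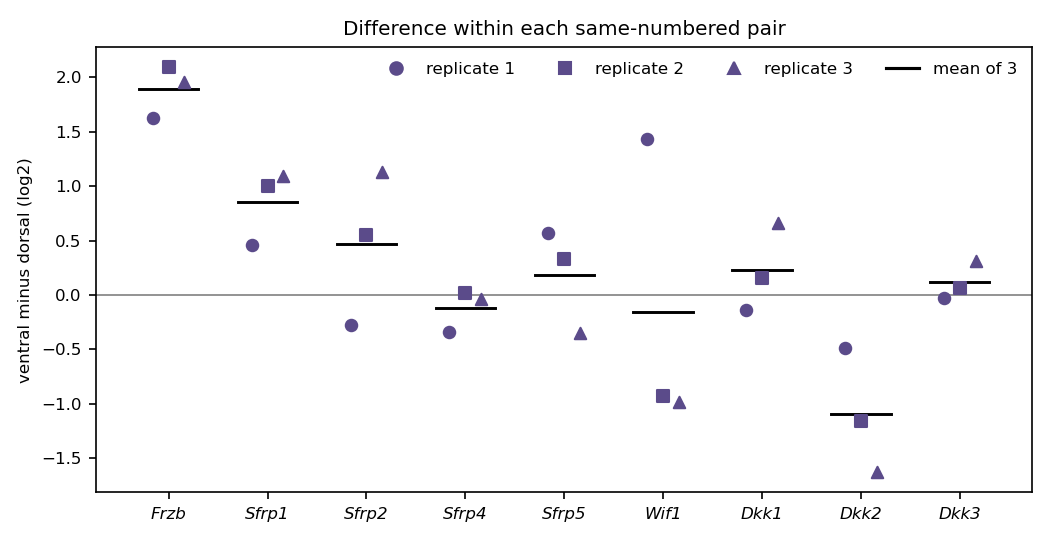
Ventral minus dorsal difference (log2) of the 9 members within each same-numbered pair of arrays (symbols) and its mean over the 3 pairs (black line). All 3 pairs are positive for Frzb and Sfrp1 and negative for Dkk2, whereas Wif1 is at 1.43 for replicate 1 and at −0.93 and −0.98 for replicates 2 and 3.

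Dkk2, a Dickkopf protein that binds LRP co-receptors, was the 1 member with every ventral array below every dorsal array, and it was not called. Its level was 4.81, 4.64 and 4.89 on ventral arrays 1, 2 and 3, against 5.30, 5.80 and 6.52 on dorsal arrays 1, 2 and 3. The ventral arrays were close together and all below the dorsal arrays, which spread more widely. Dkk2 averaged 4.78 ± 0.13 in ventral and 5.87 ± 0.61 in dorsal tissue (SD, n = 3 each). The log2 difference was −1.09 ± 0.25 (SE; limma, adjusted p = 0.179), with a 95% interval of −1.70 to −0.49 before adjustment. It was −0.49, −1.16 and −1.63 for replicates 1, 2 and 3, and 3 of 3 negative pairs follow from the absence of overlap. A log2 difference at least as large in size as that of Dkk2 was seen for 2.34% of genes tested. Dkk2 was not called under any alternative, with an adjusted p of 0.0845 to 0.483.

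Dkk1, a strong inhibitor that binds the same co-receptors and is itself switched on by beta-catenin, varied with the replicate number more than with the tissue. Its level was 4.19, 5.20 and 5.75 on ventral arrays 1, 2 and 3, against 4.33, 5.04 and 5.08 on dorsal arrays 1, 2 and 3. Both replicate 1 arrays were lower than the other 4. The mean of the same-numbered arrays was 4.26, 5.12 and 5.42 for replicates 1, 2 and 3, whereas the mean difference between the tissues was 0.23 ± 0.21 (SE; limma, adjusted p = 0.795). Without the replicate number as a block the standard error of Dkk1 was 0.39. Dkk3, named for its likeness to the other Dickkopf proteins, was the most even member. Its level was 4.97, 5.15 and 5.10 on ventral arrays 1, 2 and 3, against 4.996, 5.09 and 4.79 on dorsal arrays 1, 2 and 3. The tissues overlapped, and the log2 difference was 0.11 ± 0.18 (SE; limma, adjusted p = 0.888), with a 95% interval of −0.31 to 0.54.

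Of the 7 members tested, 5 had positive and 2 negative log2 differences, with a median of 0.23, against a median of −0.01 over all 12028 genes. These counts follow from which genes make up the group and single out nothing about it. The log2 differences of the members did not share a sign. Those of Frzb and Sfrp1 were positive and that of Dkk2 was negative, with only Frzb called, and the other 4 tested members were mixed.

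The genes whose pattern was most like that of Frzb were Fras1, Pcdhga7, Aldh1a1, Cdh18 and Pcdh7. Likeness was the root mean square difference over the 6 arrays after each gene was centred on its own mean, among 11028 of the tested genes. Predicted genes (Gm and Rik names), clone names and small RNAs were left out of this search, and places in the order hold within the genes searched. It was 0.24 for Fras1, a basement membrane protein, 0.28 for the gamma protocadherin Pcdhga7, 0.31 for the retinaldehyde dehydrogenase Aldh1a1, 0.31 for the cadherin Cdh18 and 0.31 for the protocadherin Pcdh7. Pcdhga7 shares exons with the other genes of its cluster, so its probes may read several of them. Their log2 differences were 1.71, 1.41, 1.62, 2.11 and 1.99 in that order. Among the other members Sfrp1 came nearest, in place 85 (0.56), and Dkk2 was farthest (1.57).

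**Figure D3:**
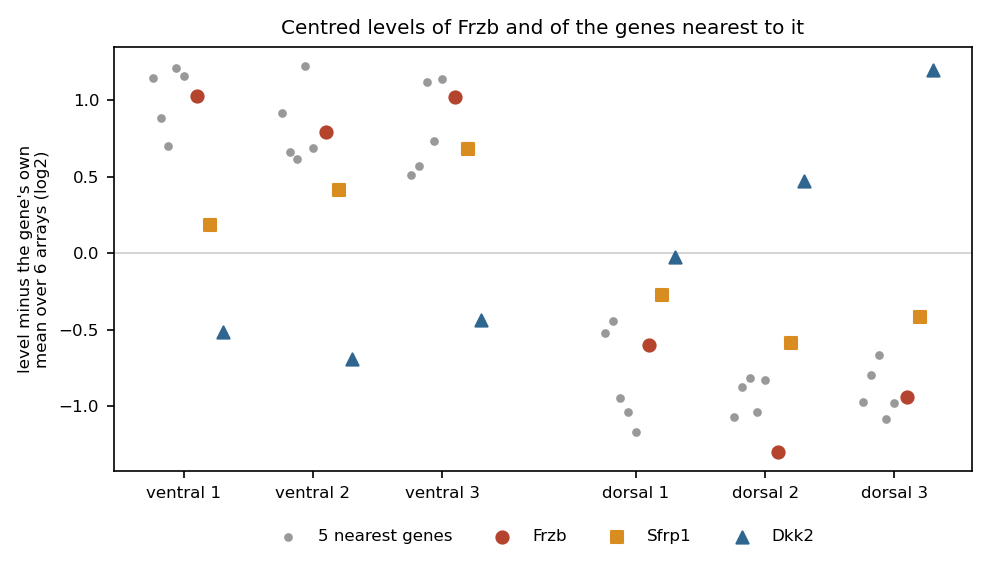
Level of each gene minus its own mean over the 6 arrays (log2), with a column of points per array, ventral arrays left of dorsal arrays. Grey points are Fras1, Pcdhga7, Aldh1a1, Cdh18 and Pcdh7, the 5 genes nearest to Frzb. Frzb (circles) and Sfrp1 (squares) are above 0 on the ventral and below 0 on the dorsal arrays, and Dkk2 (triangles) is below 0 on all ventral arrays and farthest above 0 on dorsal array 3.

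The proteins these antagonists act on, and the rest of the pathway, were read from the same fit. Of 79 other Wnt pathway genes listed, 78 were named in the table and 55 were tested, of which 0 were called higher and 1 lower in ventral tissue. At an unadjusted p below 0.05 there were 6 of the 55, against 1292 of all 12028 genes. The median log2 difference of the 55 genes was −0.09, with 17 positive and 38 negative, and the tissues did not overlap for 4 with ventral above dorsal and 10 with ventral below it. Over all genes tested, the median was −0.01 and the shares without overlap were 7.5% above and 7.88% below.

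The ligands that Frzb, the Sfrp proteins and Wif1 bind were mostly dim, with 12 of 19 Wnt genes below the filter level. None of the 7 tested was called. Wnt5a, a ligand of mesenchyme that often signals without beta-catenin, had levels of 4.60, 4.18 and 3.71 on ventral arrays 1, 2 and 3, against 5.27, 4.74 and 5.32 on dorsal arrays 1, 2 and 3. Its ventral arrays were all below its dorsal arrays, with a log2 difference of −0.94 ± 0.25 (SE; limma, adjusted p = 0.234). The ventral mean of Wnt5a lies below the filter level, so its dorsal arrays carried it past the filter. Wnt9a had a difference of −0.26 ± 0.23. Porcn and Wls, which modify and carry Wnt ligands, were at −0.08 ± 0.20 and 0.12 ± 0.17.

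Of 9 Frizzled receptors tested, 5 had positive and 4 negative differences and none was called. The greatest were those of Fzd8 (−0.73 ± 0.19; limma, adjusted p = 0.226) and Fzd9 (−0.71 ± 0.20; adjusted p = 0.267), and for both every ventral array was below every dorsal array. The co-receptors on which Dkk1 and Dkk2 act, Lrp5 and Lrp6, had differences of −0.35 ± 0.30 and −0.20 ± 0.19. Kremen1, a membrane protein that binds Dickkopf proteins together with the LRP co-receptor, was at 0.56 ± 0.27 (adjusted p = 0.529). Ror1, a receptor kinase of Wnt5a, had levels of 6.95, 7.68 and 8.42 on ventral arrays 1, 2 and 3, against 5.90, 5.61 and 6.07 on dorsal arrays 1, 2 and 3. The tissues did not overlap, and its log2 difference of 1.83 ± 0.28 just missed the threshold (adjusted p = 0.0662). Ror1 was called under 3 of 16 alternatives. These were without replicate 1 (0.0225), with a variance trend and robust fit (0.0405) and, without the block, without ventral array 1 (0.0194). Under the others it was not called, as without the block (0.0947), with dim genes included (0.181), without replicate 2 (0.111) or without replicate 3 (0.157). Its highest adjusted p was 0.267, without the block and dorsal array 1. Its relative Ror2 was at 0.21 ± 0.24.

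The gene called on the dorsal side was Rspo2, an R-spondin, a secreted protein that raises Wnt signalling by keeping Frizzled receptors at the cell surface. Its level was 5.06, 4.44 and 4.56 on ventral arrays 1, 2 and 3, against 7.24, 6.35 and 5.73 on dorsal arrays 1, 2 and 3. The tissues did not overlap, and the log2 difference was −1.75 ± 0.24 (SE; limma, adjusted p = 0.0468). Rspo2 was called under only 5 of 16 alternatives. The call was lost without the block (adjusted p = 0.127) and with dim genes included (0.133). It was also lost without replicate 1 (0.0842) or replicate 2 (0.0915), and with the block as a random effect. In the 6 fits without the block that left out 1 array, Rspo2 was never called (0.0637 to 0.352). Lgr4, an R-spondin receptor, was at −0.62 ± 0.41 and overlapped between the tissues.

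Inside the cell, 15 pathway genes were tested and 12 had negative differences, the greatest in size being those of Bcl9 (−0.37 ± 0.17) and Bcl9l (0.34 ± 0.19), a related pair of beta-catenin partners. None was called. Of 7 tested genes that respond to beta-catenin, 6 had negative differences and Dkk1 a positive one, with a median of −0.39 and none called. Of these, Dkk1, Apcdd1 and Znrf3 also belong to other lists counted here. The signs within a list were not tested. Lef1, a partner of beta-catenin on DNA, had levels of 5.85, 5.65 and 5.92 on ventral arrays 1, 2 and 3, against 6.80, 5.97 and 7.06 on dorsal arrays 1, 2 and 3. Its tissues did not overlap, with a log2 difference of −0.80 ± 0.22 (SE; limma, adjusted p = 0.249). Axin2, a negative feedback gene of the pathway, was at −0.39 ± 0.21 (adjusted p = 0.583). Of the other extracellular inhibitors, Sostdc1 was at −0.22 ± 0.22 and the membrane inhibitor Apcdd1 at −0.47 ± 0.43, and 5 of 8 were below the filter level.

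**Figure D4:**
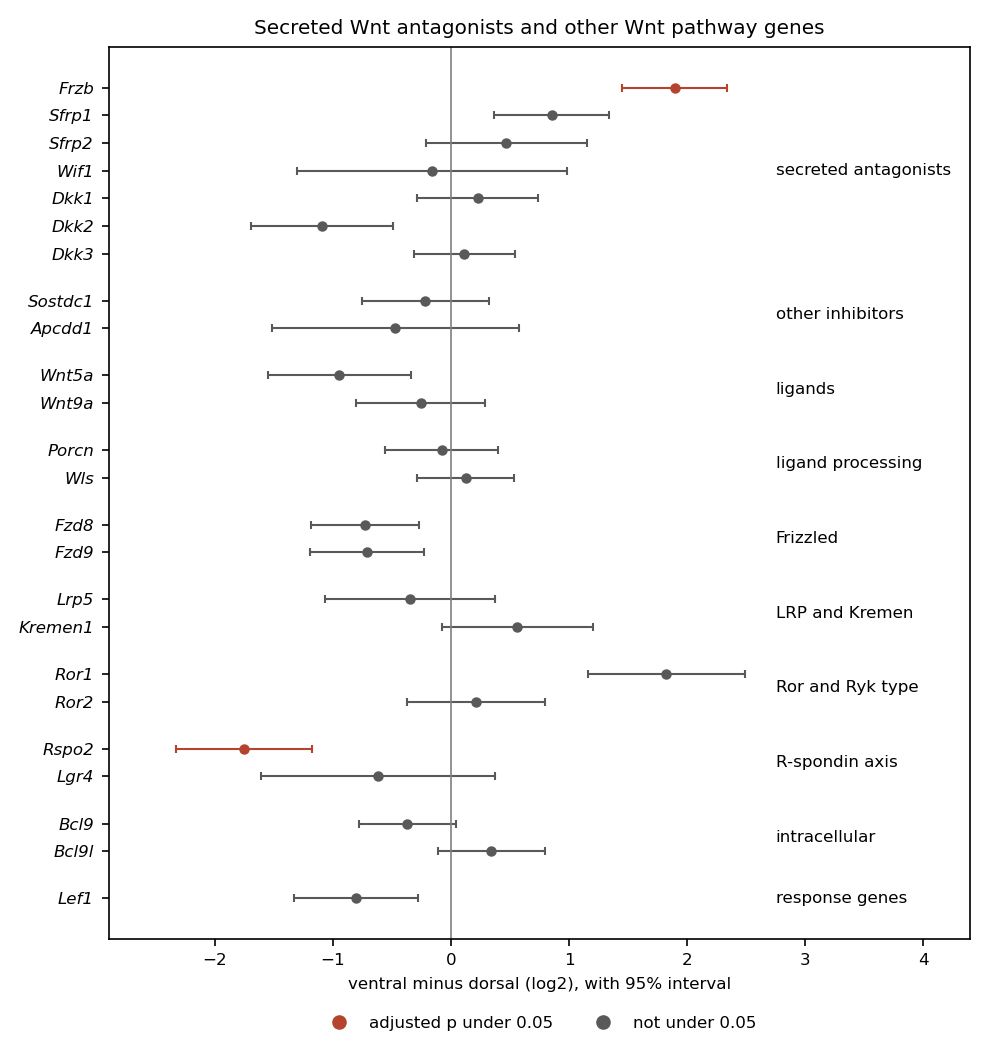
Ventral minus dorsal differences (log2) with 95% intervals before adjustment, for the 7 tested antagonists and, for each other role in the pathway, the called genes and the 2 with the greatest differences, each gene drawn once. Genes with an adjusted p below 0.05 are red: Frzb at 1.89 and Rspo2 at −1.75.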

How the data were processed

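Total RNA of laser-microdissected tissue was amplified with the Ovation Pico V2 system from picogram amounts and measured on Affymetrix Mouse Gene 2.0 ST arrays, per the labels' protocols. Such amplification can distort ratios of weak to strong transcripts. The deposited values are log2 expression levels, made by the authors with Affymetrix Expression Console and RMA, per the submitters' processing notes. Their versions and the build were not given in the sources used here. The platform table named 24015 of 24973 probe sets.

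The fit used R 4.3.3 and limma 3.58.1 (lmFit, eBayes without trend, two-sided, Benjamini-Hochberg over 12028 genes), with the replicate number as a block. The labels say that both tissues came from the same embryos, not that a number marks an embryo. After subtracting each tissue's mean, ventral and dorsal arrays of 1 number correlated at 0.0992, 0.0763 and 0.226 across genes, and those of different numbers at −0.153 to 0.0805, so the pairing is not established, and pairs here are arrays that share a number. The median standard error was 0.196 and array medians were 4.49 to 4.55. The script was tested on simulated data. Named are all members, called pathway genes and the 2 of each list with the greatest differences, plus Lrp6 and Axin2, which were named after their values were seen. The members and lists were chosen with earlier results of these data known. Motifs were chosen after the data were seen.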

Additional observations from a re-analysis of the deposited data

How the results depend on the processing

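Over 16 alternatives the signs of Frzb, Sfrp1, Sfrp2, Dkk2 and Dkk3 stayed as reported wherever they were tested. Leaving out 1 array at a time without the block was chosen after seeing the data. Without the filter on dim genes 10 genes were called, 8 higher and 2 lower in ventral tissue, and Frzb (1.89, adjusted p = 0.0647) was not among them. The number of genes tested was then 24015 and the variance fit also differed. With the filter at the 60th percentile 16 genes were called lower, while Frzb, Dkk1 and Dkk3 were not tested. With a variance trend and robust fit 38 were called lower. Without the replicate block 59 genes were called, Frzb among them (adjusted p = 0.0139), and 0 other Wnt pathway genes, as with a random block. This changed no other member's call. The trend fit called 1 Wnt gene higher, Ror1, and no filter called 0 lower. With a pair or (spread pooled over the rest) an array left out, the genes called numbered 12 (without dorsal 1) to 104 (without ventral 1), with 13, 18 and 23 without ventral 2, ventral 3 and dorsal 2, those higher 8 to 74 and those lower 4 to 30. Other Wnt genes called were 0 to 1 in either direction. Frzb then ran from 1.72 to 2.07 and was not called without replicate 3 (0.0507) or, without the block, without ventral 2 (0.0749) or ventral 3 (0.0670). Wif1 ran from −0.96 to 0.25, Dkk1 from −0.12 to 0.65, Apcdd1 from −1.23 to 0.083, Porcn from −0.24 to 0.090 and Ror2 from −0.085 to 0.47, so their signs are unsettled. Causes were not tested. Low signal limits what can be said of Sfrp4 and Sfrp5.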
